A study of Mus musculus with 2 samples.

Results

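The cells described here are the fibroblast-type cells of the optic nerve and its coverings, chosen as barcodes with at least 10 UMIs of Col1a1, Col1a2 and Dcn together. Col1a1 and Col1a2 encode the chains of type I collagen and Dcn encodes decorin, a small proteoglycan that binds collagen fibrils. Barcodes with fewer than 500 genes or over 10% mitochondrial UMIs were left out, and the rest had to stay under fixed limits on precursor (at most 2 UMIs), myelin (at most 1), T cell (at most 1) and C1q (at most 3) genes. The rule found 202 cells among 19784 barcodes that passed the gene and mitochondrial limits, 124 in the library of anti-PDCD1 mice and 78 in that of anti-TIGIT mice. Because collagen and decorin UMIs chose the cells, their levels are description here.

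Fibroblasts build the connective tissue of nerves and of the meninges, the membranes that wrap the brain and the optic nerve. They secrete fibrillar collagens, which are folded in the endoplasmic reticulum with the help of prolyl hydroxylases and the chaperone Serpinh1 and then cross-linked outside the cell by lysyl oxidases. Small proteoglycans such as decorin and lumican regulate fibril width. The meninges hold several fibroblast layers: an inner layer known for Ptgds, a prostaglandin D synthase that also carries lipophilic molecules in cerebrospinal fluid, a tight-junction layer with drug-efflux transporters, and the outer dura.

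Each library came from the pooled optic nerves of 10 Nf1-OPG mice at 12 weeks of age, so neither library has a replicate and no p-value can be given. Nf1-OPG mice (Nf1flox/neo; GFAP-Cre) carry 1 Nf1 allele disrupted by a neomycin cassette in exon 31 and a floxed Nf1 allele that GFAP-Cre removes in neuroglial progenitors, and both libraries share this genotype. The mice of one group received an antibody against PDCD1 (PD-1) and those of the other an antibody against TIGIT, both receptors that restrain T cells, and no untreated library was analysed here. The labels give optic nerve as the tissue but their protocol also speaks of dural suspensions, and it cannot be told from them whether dura entered the libraries. Live cells were sorted by 7-AAD after debris and myelin removal and sequenced with 10x 5′ chemistry.

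The collagen-selected cells made up 0.984% of kept barcodes in the anti-PDCD1 library (95% Clopper-Pearson interval 0.819 to 1.17%) and 1.09% in the anti-TIGIT library (0.860 to 1.35%). The difference of -0.103 points had a Newcombe interval from -0.413 to 0.183. No difference in share was therefore detectable with these cell numbers. All intervals cover counting error only, not variation between mice. The cells carried 1141598 and 517183 UMIs in all, with medians of 7982 and 6054 UMIs and of 3048 and 2626.5 genes, against 5120 and 4453 UMIs over all kept barcodes. The libraries shared 163 barcode sequences, none of them among these cells. Cells with Xist and no Y-linked UMI numbered 59 and 33, and cells with Y-linked UMIs and no Xist numbered 36 and 19, so both pools held mice of both sexes.

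Markers of other cell types were summed list by list. The 7 endothelial genes summed to 52.6 and 112 CPM, mostly Cdh5 (46.4 and 94.7 CPM), the 7 mural genes to 226 and 155 CPM, mostly Vtn (221 and 147 CPM), and the 6 astroglial genes to 434 and 572 CPM, mostly the gap-junction gene Gja1 (412 and 555 CPM in 91 and 42 cells). The endothelial genes Pecam1, Cldn5 and Flt1, the mural genes Kcnj8, Higd1b and Myh11 and the astroglial genes Gfap and Aqp4 had no UMI in either library, which allows at most 2.63 and 5.80 CPM (UMIs scaled to a common library total) in the anti-PDCD1 and anti-TIGIT libraries. Summed T cell markers reached 7.01 and 7.73 CPM, and macrophage and microglia markers 36.8 and 40.6 CPM. Mbp, a myelin gene, was found at 1069 and 944 CPM, below its level in the T cell gate (2317 and 1589 CPM), which should lack it. Jchain, the joining chain of plasma cell antibodies, was found in 56.5% and 19.2% of the cells, and in 56.9% and 28.9% of the oligodendrocyte gate, which should lack it, at median depths of 7099 and 6541 UMIs. One anti-PDCD1 cell of 31462 UMIs, the deepest of all, held 1462 of the 1768 Jchain UMIs. It was not called a doublet by Scrublet, which called 4 cells of the anti-PDCD1 library and 0 of the anti-TIGIT library.

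By Lum and Pdgfra, among the 7 marker genes chosen for it, the label fits only part of these cells. Lum (lumican) and Pdgfra, general fibroblast genes, were concentrated in a cluster of 51 cells, 29 in the anti-PDCD1 and 22 in the anti-TIGIT library. The other 151 cells carried little of either. They held instead Ccn3, a secreted matricellular growth regulator, with Slc47a1, an exporter of organic cations, and Slc4a10, a bicarbonate transporter. At least 3 UMIs of these 3 genes together were present in 92 of 95 such cells in the anti-PDCD1 library and in 51 of 56 in the anti-TIGIT library, and in 0 of the 51 Lum cluster cells, which allows a share of up to 5.88%. At least 3 UMIs of Lum and Pdgfra were present in 23 of 29 and 19 of 22 Lum cluster cells, and in 3 and 9 of the others. Of the other genes listed for the label, Dcn and Col1a1 were also higher in the Lum cluster, while Col1a2 was lower and Prg4 had no UMI there. Ptgds was higher there in the anti-PDCD1 library and lower in the anti-TIGIT library. The higher level rested on 2 cells, without which the Lum cluster of the anti-PDCD1 library stood at 195 CPM. The other cells of that library stood at 1722 CPM. In the mm10 genome (GRCm38, GENCODE annotation) Ccn3 lies at chr15:54745702-54754039, Slc47a1 at chr11:61343401-61378345, Slc4a10 at chr2:62046462-62326730 and Lum at chr10:97565128-97572703.

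**Figure D1:**
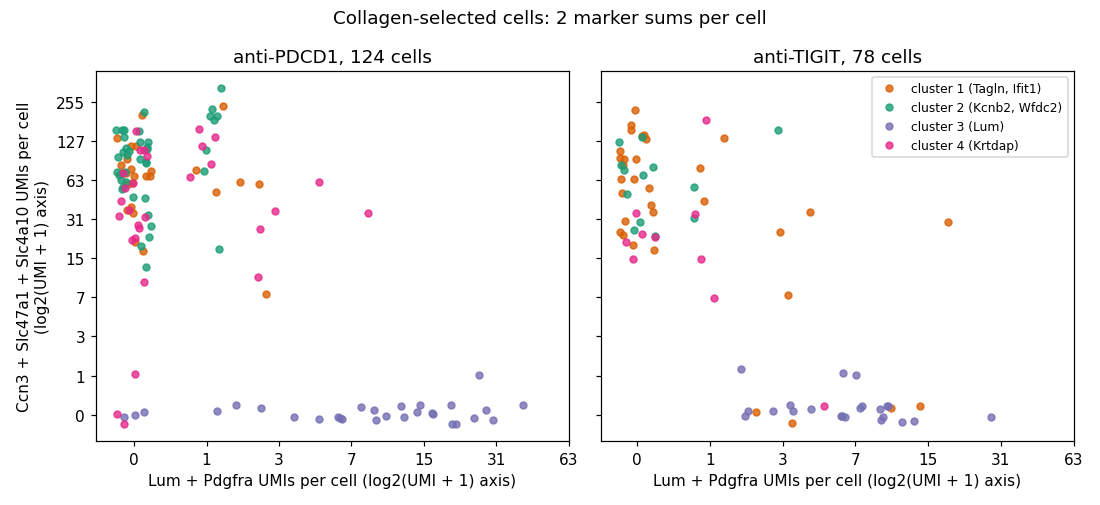
UMIs per cell of Lum + Pdgfra (horizontal) and of Ccn3 + Slc47a1 + Slc4a10 (vertical), both on log2(UMI + 1) axes with jitter, 1 point per cell, coloured by cluster, 124 anti-PDCD1 cells left and 78 anti-TIGIT cells right. The 51 cells of the Lum cluster lie along the bottom in both libraries, and most of the other 151 cells lie at the upper left.

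The separation held when the cells were clustered more coarsely or more finely: all 51 Lum cells stayed together at Leiden resolutions of 0.3 (3 clusters) and 1.0 (7 clusters, 53 cells in the cluster that held them). Clusters were built from these genes, so their leading genes describe them and are no test. The Lum cluster was also shallower, with a median of 2802 UMIs against 7763 to 9111 in the other 3 clusters. Its cells held more of the immediate early and heat shock genes that respond to tissue handling: their summed level was 26135 and 25795 CPM in it, and 5772 and 6307 CPM in the other cells of the anti-PDCD1 and anti-TIGIT libraries. The part of depth and handling in the differences between clusters was not tested.

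Col1a1, Col1a2 and Dcn admitted the cells in different proportions. In the Lum cluster 90.4% of the selecting UMIs were Dcn, 5.42% Col1a1 and 4.21% Col1a2, and the median cell had 40 of them. In cluster 1 Col1a2 gave 46.9% and Dcn 32.9%, and in cluster 2 Col1a2 gave 53.4% and Dcn 24.4%, with a median of 15 selecting UMIs in each. Dcn was at 0 UMIs in 38 of the 202 cells, 22 of them in cluster 2. The type I collagen chains differed in opposite directions, each by less than 2-fold: Col1a2 was at 602 and 669 CPM in the Lum cluster and 945 and 920 CPM in the other cells of the anti-PDCD1 and anti-TIGIT libraries, and Col1a1 at 793 and 832 against 448 and 459 CPM.

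Most barcodes near the threshold of 10 UMIs carried Ccn3, and a few carried Lum. Just inside it, at 10 to 12 UMIs, lay 25 and 17 cells, all of which had Ccn3 UMIs and none of which had Lum UMIs. Just outside it, at 7 to 9 UMIs with the other limits met, lay 81 and 22 barcodes, of which 78 and 17 had Ccn3 and 3 and 4 had Lum. Their Ccn3 level of 6363 and 3929 CPM lay on either side of that just inside, 5572 and 6051 CPM. The lowest cell of the Lum cluster held 13 selecting UMIs. Cells of both kinds thus lay on either side of the threshold, and the counts here are not the number of such cells in the nerve.

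Leiden clustering gave 4 clusters, which are called here by their leading genes. Cluster 1 (59 cells) was led by genes seen in at least 20% of its cells such as Tagln, which encodes a protein of actin bundles, the interferon-induced Ifit1, Ifit3 and Isg15, and Cd74. Jchain also led it, but 88.0% of those UMIs lay in 1 cell. Cluster 2 (53 cells) was led by Kcnb2, a potassium channel subunit, Adgrv1, Wfdc2 and Col25a1, a transmembrane collagen. Cluster 3 is the Lum cluster, led by Crispld2, the complement component C7, Lum, Edn3, Col4a6 and the GABA transporter Slc6a13. Cluster 4 (39 cells) was led by Krtdap and Sbsn, known from epidermal differentiation, Pi16, a gene of adventitial fibroblasts, and Stra6, a retinol transporter. With 39 to 59 cells in a cluster, no cell type names are given.

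The cluster shares differed between the libraries. Cluster 1 took 21.0% of the anti-PDCD1 cells (95% interval 14.2 to 29.2%) and 42.3% of the anti-TIGIT cells (31.2 to 54.0%). Cluster 2 took 32.3% (24.1 to 41.2%) and 16.7% (9.18 to 26.8%). The Krtdap cluster took 23.4% (16.3 to 31.8%) and 12.8% (6.32 to 22.3%), and the Lum cluster 23.4% (16.3 to 31.8%) and 28.2% (18.6 to 39.5%). The intervals did not overlap for cluster 1 and overlapped for the other 3. Cluster 1 included anti-TIGIT cells of 7161, 4334, 3720 and 1343 UMIs without Ccn3, Slc47a1 or Slc4a10. These held 23 to 61 Dcn UMIs, as Lum cluster cells do. The share of cluster 1 depends on where such cells were placed, and its interval without them was not computed. Interferon genes that define cluster 1 also differed between the libraries, so its share is not independent of expression, and variation between mice is unknown.

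**Figure D2:**
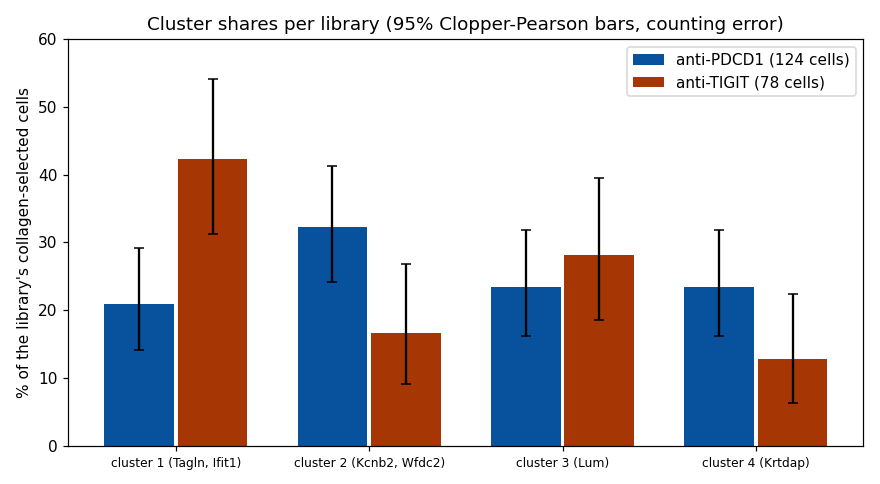
Share of each library's collagen-selected cells (percent, vertical) in each of the 4 clusters, blue for anti-PDCD1 and brown for anti-TIGIT, with 95% Clopper-Pearson bars that cover counting error only. Cluster 1 takes 21.0% of the anti-PDCD1 and 42.3% of the anti-TIGIT cells.

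Matrix genes differed between the Lum cells and the other cells, in amount for some groups and in kind for others. The proteoglycans, Dcn of the selection among them, summed to 18621 and 19319 CPM in the Lum cluster and to 2468 and 3115 CPM in the other cells, and the elastic fibre and adhesive glycoproteins to 9081 and 8574 against 4770 and 4886 CPM. In the Lum cluster Dcn reached 12972 and 14327 CPM, Lum 2973 and 2334 CPM and Mfap4, a microfibril-associated protein, 2275 and 2695 CPM in the anti-PDCD1 and anti-TIGIT libraries, and in the other cells Lum was at 15.4 and 128 CPM. Basement membrane chains followed the same split, with Col4a5 at 229 and 326 CPM in the Lum cluster against 2.89 and 10.8 CPM elsewhere and Col4a6 at 220 and 271 CPM against 0. The transmembrane collagen Col13a1 stood at 239 and 181 CPM against 1.93 and 2.16 CPM. Type VI collagen ran the other way, with Col6a1 at 182 and 163 CPM in the Lum cluster and 572 and 457 CPM in the other cells, and Col6a2 at 191 and 271 against 945 and 747 CPM. Fn1, fibronectin, was at 9.56 and 18.1 CPM in the Lum cluster and 736 and 496 CPM in the others. The summed fibrillar collagens were close, 1855 and 2098 CPM in the Lum cluster and 2124 and 1786 CPM in the other cells.

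The other cells carried a set of transport and junction genes that the Lum cells lacked or had at low level. Ccn3 stood at 5340.5 and 5505.5 CPM in them and at 0 and 36.2 CPM in the Lum cluster, where 3 UMIs amount to 28.7 and 54.3 CPM. Slc4a10 was at 1389.6 and 1375 CPM and had no UMI in the Lum cluster, and the efflux pump Abcb1a was at 278 and 266 CPM and had none either. Slc47a1 was at 866 and 649 CPM, the efflux pump Abcg2 at 462 and 403 CPM, and Cldn11, a tight-junction claudin, at 254 and 268 CPM. The gap-junction gene Gja1 was at 450 and 621 CPM against 28.7 and 0 in the Lum cluster, whereas Gjb6 was not split, at 325 and 422 against 363 and 488 CPM. Ecrg4, a secreted peptide precursor of barrier epithelia and meninges, was at 2420.5 and 2439.9 CPM in the other cells, in 90 of 95 and 51 of 56 of them, and had no UMI in the Lum cluster. Of 12 barrier transporter and junction genes compared between the libraries 0 were called, where 1.75% of all genes were called higher and 1.19% lower, so the count says nothing particular of them. Their median log2 ratio was 0.02.

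Signalling genes were divided in the same way. Rspo3, which amplifies Wnt signalling, stood at 750 and 639 CPM in the other cells and 66.9 and 36.2 CPM in the Lum cluster, and Foxp2, a forkhead transcription factor, at 502 and 507 against 115 and 18.1 CPM. Il33, an alarmin of stromal cells, stood at 574 and 380 CPM in the Lum cluster and 65.6 and 95.3 CPM in the others, Timp3, a metalloprotease inhibitor, at 1396 and 2116 against 129 and 134 CPM, and Cxcl12, a chemokine that holds leukocytes in tissue, at 1176 and 923 against 173 and 264 CPM. Tcf21, a mesenchymal transcription factor, stood at 296 and 362 against 0 and 21.6 CPM. Foxc1, needed for meningeal development, was not split, at 172 and 181 CPM against 177 and 216 CPM. A 2-fold higher level in the Lum cluster was found for 5.98% of 3828 genes within the anti-PDCD1 library and a 2-fold lower one for 23.2%, and for 7.05% and 25.5% of 1831 genes within the anti-TIGIT library, on the scale of log2(CPM + 5). The deeper clusters take the larger share of the genes that could be compared.

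**Figure D3:**
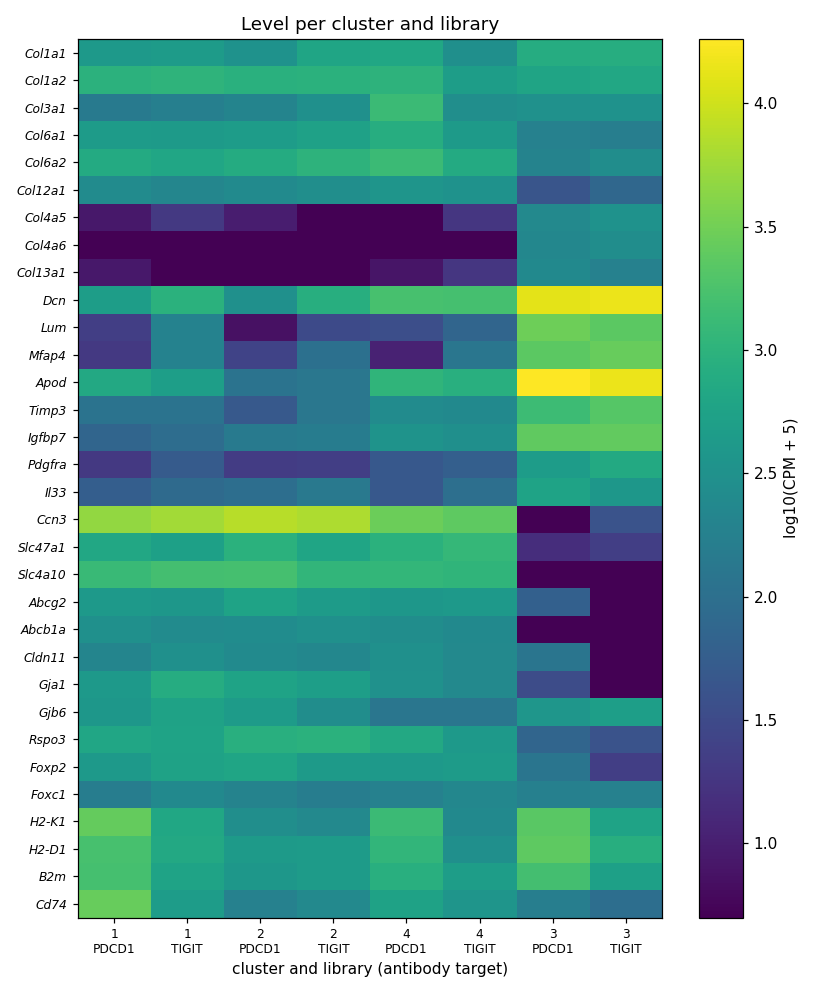
Level of 32 genes as log10(CPM + 5) by colour, rows for genes and columns for each cluster in each library, with the Lum cluster (cluster 3) in the last 2 columns. Dcn, Lum, Mfap4 and Apod are high in the Lum cluster of both libraries, and Ccn3, Slc47a1, Slc4a10 and Abcb1a in the other 3 clusters.

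Markers kept apart by meningeal and nerve layer gave the following levels. Genes listed for the dura, among them Mgp, a calcification inhibitor, and Fxyd5, summed to 11920 and 8442 CPM in the anti-PDCD1 and anti-TIGIT libraries, and genes listed for the dural border (Slc47a1, Gjb2, Gjb6) to 1221 and 1183 CPM. The arachnoid barrier genes, with Cldn11 and Abcb1a leading and Dpp4 and Slc22a8 under 10 CPM, summed to 592 and 524 CPM. The leptomeningeal genes summed to 4017 and 543 CPM, mostly Ptgds and Crabp2, while Slc22a6 and Slc13a4 were at 7.01 CPM in the anti-PDCD1 library. The 5 endoneurial genes summed to 211 and 273 CPM with UMIs in 97 of 124 and 50 of 78 cells, mostly Abca9 (180 and 236 CPM), while Osr2 and Wif1 had no UMI in either library. The 6 perineurial genes summed to 781 and 516 CPM. Perp stood at 511 and 418 CPM and Lypd2, a leading gene of the Krtdap cluster, at 236 and 69.6 CPM. Itgb4, Cldn1 and Slc2a1 were between 0 and 11.6 CPM. Mgp was found in 121 of 124 and 76 of 78 cells, at 7405 and 4335 CPM, while in the T cell gate 2.78% and 0.994% of barcodes had a UMI of it, at median depths of 3796 and 3045 UMIs.

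Ptgds was carried by a few cells at very high level and by most cells at 1 UMI or none. A UMI was found in 73 of 124 anti-PDCD1 cells (58.9%) and 42 of 78 anti-TIGIT cells (53.8%), and the median was 1 UMI in both. The T cell gate, which should lack Ptgds, held it in 16.4% and 15.1% of barcodes, the macrophage and microglia gate in 23.8% and 42.4% (220 and 666 CPM) and the precursor gate in 28.2% and 29.4% (463 and 443 CPM), at median depths of 3045 to 6107 UMIs. The anti-TIGIT fibroblasts, at 307 CPM, lay below both of the latter gates of their library, so their Ptgds is not told apart from background by level. The highest anti-PDCD1 cells held 1556, 1129, 561, 99 and 86 UMIs, and the 3 highest together held 82.8% of the library's Ptgds UMIs. The highest anti-TIGIT cell held 15. Ptgds lies at chr2:25466709-25470046 on the minus strand (mm10).

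The libraries differed in the summed level of Ptgds while the median cell was at 1 UMI in both. Ptgds stood at 3436 CPM in the anti-PDCD1 and 307 CPM in the anti-TIGIT cells, a log2 ratio of (CPM + 5) of 3.46 (interval of the plain ratio 3.25 to 3.72). Without the 3 highest cells of each library the levels were 612 and 259 CPM and the log2 ratio 1.24 (0.96 to 1.53). This remainder was also uneven. The anti-PDCD1 cells ranked 4 to 8 held 99 to 67 Ptgds UMIs each. The first 8 together held 93.4% of the Ptgds UMIs of that library, and the first 8 of the anti-TIGIT library 45.9%. A ratio without these 8 was not computed. With every cell thinned to 1000 UMIs, 22.6% and 25.6% of cells had a Ptgds UMI. The log2 ratio was 2.34 with the Lum cluster left out and 1.38 in cells with Y-linked UMIs only. In all other kept barcodes it was -0.22, and oligodendrocytes, which make Ptgds themselves, stood at 3163 and 3112 CPM.

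The highest Ptgds cells were not of 1 kind. The first and the third lay in the Lum cluster, where Ptgds made up 28.7% of the 5417 and 30.3% of the 1849 UMIs of these cells, and both had no Lum UMI, 9 and 3 UMIs of Slc6a13, and 70 and 32 of Apod, a lipid-binding lipocalin. Without them the other Lum cluster cells of the anti-PDCD1 library stood at 195 CPM of Ptgds, with a highest cell of 8 UMIs. The second lay in cluster 2 with 28971 UMIs, no Dcn, 114 UMIs of Ccn3 and 53 of Prg4. Barcodes of this sort also lay outside the selection: Ptgds made up at least 10% of UMIs in 9 kept anti-PDCD1 barcodes, of which 2 met the selection and 5 had at most 1 Mog and Mag UMI but fewer than 10 selecting UMIs, and all 5 of these had Slc6a13. In the anti-TIGIT library 0 of 7179 kept barcodes reached that share.

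**Figure D4:**
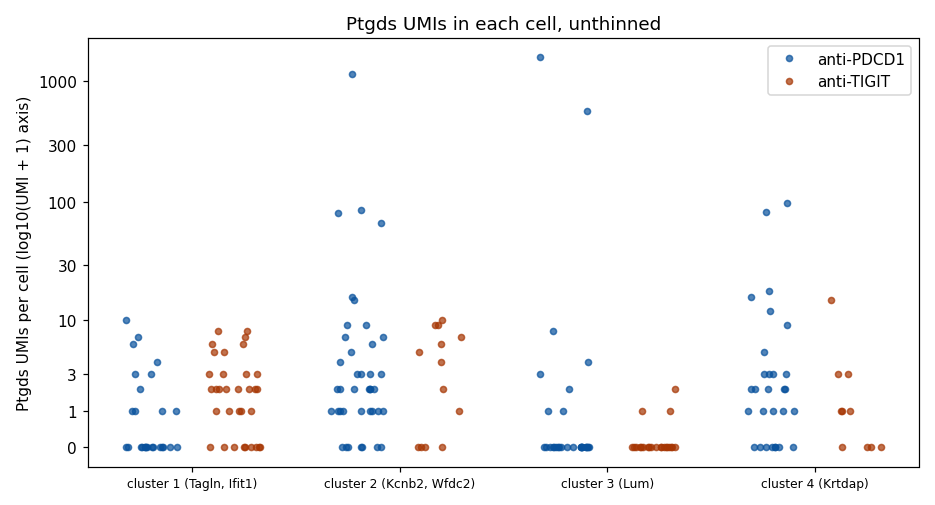
Ptgds UMIs per cell on a log10(UMI + 1) axis, 1 point per cell, by cluster and library (blue anti-PDCD1, brown anti-TIGIT). The 8 highest anti-PDCD1 cells lie between 67 and 1556 UMIs, and the highest anti-TIGIT cell has 15.

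No gene followed Ptgds closely from cell to cell. Among 4176 genes compared after thinning, the largest mean Spearman correlation with Ptgds over the 2 libraries was 0.30 (Brwd1, rho 0.34 over 124 cells and 0.26 over 78), which in counts this sparse is no finding. Most thinned cells had no Ptgds UMI, so cells could not be ordered by it. Collagens other than those of the selection were spread more evenly, with a median of 2 UMIs in 1000 in each library and an upper quartile of 4 and 3.75, and 87.9% and 85.9% of thinned cells had at least 1. Their medians per cluster ranged from 1.5 to 4 in the anti-PDCD1 and from 2 to 3 in the anti-TIGIT library.

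Prg4 encodes lubricin, a boundary lubricant of joints that is also found in meninges. It was found in 23 anti-PDCD1 cells with 211 UMIs (185 CPM) and in 4 anti-TIGIT cells with 5 UMIs (9.67 CPM). The log2 ratio of (CPM + 5) was 3.69, and 3.76 without the highest cell of each library, which held 53 and 2 UMIs. All carriers lay outside the Lum cluster. In the other kept barcodes Prg4 stood at 9.65 and 0.787 CPM, a log2 ratio of 1.34, so it was higher in the anti-PDCD1 library there too. Crabp2, which carries retinoic acid to the nucleus, stood at 491 and 174 CPM, in 67 and 21 cells, with a log2 ratio of 1.47, and Stra6 at 175 and 48.3 CPM with a log2 ratio of 1.76. Of 18 retinoid and meningeal transcription factor genes compared, these were the 2 called higher and none was called lower, against 1.75% and 1.19% of all genes. Their median log2 ratio was -0.26.

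Of 5193 genes with 50 UMIs or more over both libraries, 91 (1.75%) reached a 2-fold higher level in the anti-PDCD1 cells and 62 (1.19%) a 2-fold lower one, on log2(CPM + 5). The median over all genes was -0.02. After each library's highest cell was left out gene by gene, 81 and 45 of them kept the call. A single cell held at least 50% of the UMIs in 15 of the higher and 9 of the lower genes, and 12 and 5 were called the same way in all other kept barcodes. Fewer cells of one cluster and less RNA per cell cannot be told apart in these sums.

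Several further genes higher in the anti-PDCD1 cells were leading genes of the Krtdap cluster, which took 23.4% of the anti-PDCD1 and 12.8% of the anti-TIGIT cells. Krtdap (chr7:30787896-30791097, mm10) had 225 and 7 UMIs, 197 and 13.5 CPM, with 110 UMIs in 1 anti-PDCD1 cell and a log2 ratio of 3.45. Pi16 stood at 111 and 17.4 CPM (log2 ratio 2.38) and Sbsn at 77.1 and 13.5 CPM (2.15). Crip1, a small zinc-binding protein, had a log2 ratio of 1.84. S100a6, a small calcium-binding protein with a log2 ratio of 1.89, was not among the leading genes of the Krtdap cluster. It stood at 2237 and 1574 CPM in the Lum cluster. The levels also differed within the Krtdap cluster, of 29 and 10 cells. Krtdap stood there at 675 and 67.4 CPM, Pi16 at 356 and 40.5, Sbsn at 262 and 67.4, S100a6 at 2638 and 432 and Crip1 at 2224 and 378 CPM. The same anti-PDCD1 cell, of 27997 UMIs, was the highest for Krtdap (110 UMIs), Pi16 (41) and S100a6 (312). Within the cluster Krtdap had UMIs in only 12 and 1 cells, Pi16 in 10 and 3, Sbsn in 13 and 3, S100a6 in 23 and 8 and Crip1 in 22 and 6. Outside the Krtdap cluster the log2 ratios were -0.13, -0.10, -0.35, 0.52 and 0.36 in the same order. This split was chosen after seeing the data, by a cluster that all of these genes but S100a6 lead. Of 10 adventitial fibroblast genes, 4 were called higher (Pi16, Ly6a, Cd34 and Ackr3) and 0 lower, against 1.75% and 1.19% of all genes. Their median log2 ratio was 0.44, and it was also 0.44 in all other kept barcodes.

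The genes that follow did not lead the Krtdap cluster. Ramp1, a co-receptor for the neuropeptide CGRP, had UMIs in 87 of 124 and 26 of 78 cells, at 656 and 172 CPM, with a log2 ratio of 1.90 and 1.08 in the other barcodes. Calca, which encodes CGRP itself, went the other way, at 21.0 and 69.6 CPM with a log2 ratio of -1.52 over 14 and 13 cells. Lgals3, a galectin, stood at 96.4 and 13.5 CPM (2.45) in 28 and 6 cells. Col25a1 stood at 222 and 54.1 CPM (1.94) in 41 and 7 cells. It was a leading gene of cluster 2, which took 32.3% of the anti-PDCD1 and 16.7% of the anti-TIGIT cells. Hhip, an inhibitor of hedgehog ligands, stood at 49.1 and 7.73 CPM (2.09) in 24 and 4 cells. Lgals3, Col25a1 and Hhip were at -0.42, 0.01 and -0.36 in the other kept barcodes.

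Genes higher in the anti-TIGIT cells were of several sorts. Tmtc2, a transmembrane protein of the endoplasmic reticulum, stood at 28.0 and 149 CPM (log2 ratio -2.22), and at 63.9 and 133 CPM in the other kept barcodes. Jarid2, a partner of the Polycomb repressive complex, stood at 62.2 and 263 CPM (-2.08 without the highest cells), with a log2 ratio of -0.82 in the other barcodes. The noncoding gene AY036118 stood at 2584 and 10383 CPM (-2.03 without the highest cells, and -1.08 in the other barcodes). Filip1l (-1.55) had -1.16 there. Gdf10, a growth factor of the BMP family, stood at 41.2 and 139 CPM (-1.64) in 26 and 29 cells, and at -0.11 elsewhere. Sparcl1, a matricellular protein that was largely in the Lum cluster, stood at 793 and 1845 CPM in that cluster, with -1.60 over all cells.

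**Figure D5:**
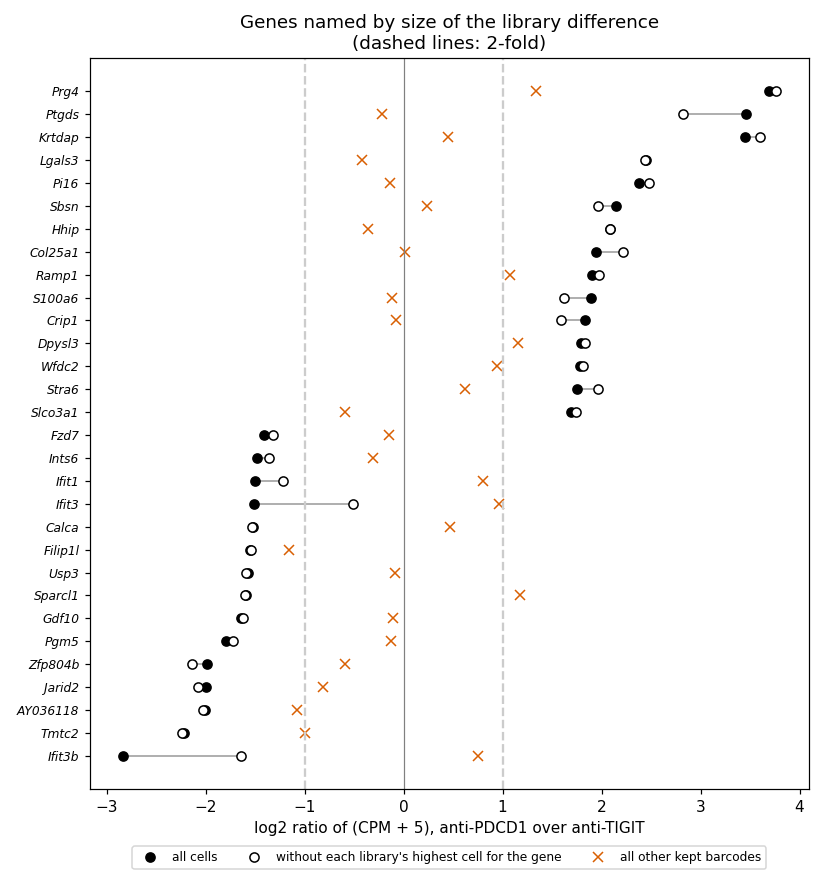
Log2 ratio of (CPM + 5), anti-PDCD1 over anti-TIGIT, for the 30 genes named by size: filled points for all cells, open points without each library's highest cell for the gene, orange crosses for all other kept barcodes, dashed lines at 2-fold. Ifit3 moves from -1.51 to -0.51 without the highest cell, and Krtdap, Pi16 and Prg4 stay above 2.

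Most collagen and other matrix genes stayed within 2-fold between the libraries, as did most genes of the whole table, of which 1.75% were called higher and 1.19% lower. Of 5 fibrillar collagen genes compared, Col3a1 alone was called, at 523 and 230 CPM (log2 ratio 1.17, and 0.66 without the highest cell, which held 219 UMIs), while Col1a1 stood at 480 and 499 CPM and Col1a2 at 914 and 893 CPM. Of 6 network and beaded collagens 1 was higher, Col8a1 at 201 and 71.5 CPM (1.43), and of 4 fibril-associated and transmembrane collagens 1, Col25a1. None of 19 folding and cross-linking genes was called in either direction, with a median of 0.06, among them Serpinh1 at 795 and 648 CPM and Lox at 60.4 and 116 CPM. None of 12 matrix proteases and inhibitors was called (median -0.10). Of 9 proteoglycans only Prg4 was called, with a median of -0.34, and of 17 elastic fibre and adhesive glycoproteins only Eln (1.03, and 0.35 without its highest cell).

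Of 26 growth factor, receptor and binding protein genes compared, 0 were called higher and 5 lower, against 1.19% lower over all genes: Gdf10, Angptl1 (-1.29), Igf2 (-1.10), Igfbp2 (-1.09) and Tgfb2 (-1.01), and the median log2 ratio was -0.24. In cells with Xist and no Y-linked UMI 3 of 17 were lower and the median was 0.01, and with at least 20 selecting UMIs 2 of 18 were lower. Igfbp2, which binds insulin-like growth factors, stood at 283 and 609 CPM in 79 and 55 cells. Of 5 contractile genes 2 were lower, Tagln at 151 and 313 CPM (-1.03) and Myl9 at 101 and 265 CPM (-1.35), and Tagln was a leading gene of cluster 1, which held the larger share of the anti-TIGIT cells. Of 12 matricellular genes 2 were higher, Ccn2 (1.46) and Tnxb (1.25), and Sparcl1 was lower.

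Chemokine differences rested on single cells. Cxcl10 had 32 UMIs in 5 anti-PDCD1 cells and 124 UMIs in 1 anti-TIGIT cell, which also held 82 of the 90 Ccl2 UMIs and 48 of the 50 Ccl7 UMIs of that library. This cell had 4334 UMIs, with 27 of Dcn and 12 of Lum and none of Col1a1, Col1a2 or Ccn3, and lay in cluster 1. Of 10 chemokine and cytokine genes compared, 3 were called lower in the anti-PDCD1 cells, those named, against 1.19% of all genes. The median log2 ratio of -0.62 was -0.20 without each gene's highest cells. Cxcl12 stood at 265 and 335 CPM in 85 and 57 cells.

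Type I interferon genes were lower in the anti-PDCD1 cells for 3 of 10 genes compared (Ifit1, Ifit3 and Isg15), against 1.19% of all genes, 0 were higher, and the median was -0.23, while the same list had a median of 0.75 in all other kept barcodes. Ifit1 and Ifit3 encode proteins that bind foreign RNA or support antiviral signalling, and Isg15 encodes a ubiquitin-like modifier. Ifit1 stood at 64.8 and 193 CPM in 28 and 24 cells (log2 ratio -1.51), and Isg15 at 180 and 422 CPM in 60 and 28 cells (-1.20). A single anti-TIGIT cell of 9195 UMIs held 59 of 94 Ifit3, 34 of 100 Ifit1 and 25 of 28 Rsad2 UMIs, and without the highest cells the ratio was -0.51 for Ifit3, -1.22 for Ifit1 and -1.05 for Isg15. Ifit3b, a near copy of Ifit3 whose reads may be assigned to either gene, had 25 and 97 UMIs, 65 of them in 1 anti-TIGIT cell, with ratios of -2.84 and -1.65 without it. These calls did not hold in every subset. In cells with at least 20 selecting UMIs 0 of 8 genes of the list were lower and the median was 0.083, with Ifit1 at -0.76 and Ifit3 at -0.02. In cells with Xist and no Y-linked UMI 0 of 8 were lower and 1 was higher, with a median of 0.12 and Ifit3 at 1.27, the opposite direction, and in cells with Y-linked UMIs and no Xist 4 of 7 were lower, with a median of -1.05.

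The 250 bases before the start of Ifit1, Ifit3 and Ifit3b are shown because each of these genes was lower in the anti-PDCD1 cells and because each window holds copies of the interferon-stimulated response element, searched as GAAA, any 2 bases and GAAA again, on both strands (RefSeq starts, GRCm38.p6, 5′ to 3′, plus strand). Capitals mark the matches. The windows are chr19:34640639-34640888, chr19:34583279-34583528 and chr19:34607707-34607956.
Ifit1: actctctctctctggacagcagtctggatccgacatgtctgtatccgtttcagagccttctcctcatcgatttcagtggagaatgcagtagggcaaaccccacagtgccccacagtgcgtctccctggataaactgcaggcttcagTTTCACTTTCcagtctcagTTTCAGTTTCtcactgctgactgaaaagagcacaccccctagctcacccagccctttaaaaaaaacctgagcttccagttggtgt
Ifit3: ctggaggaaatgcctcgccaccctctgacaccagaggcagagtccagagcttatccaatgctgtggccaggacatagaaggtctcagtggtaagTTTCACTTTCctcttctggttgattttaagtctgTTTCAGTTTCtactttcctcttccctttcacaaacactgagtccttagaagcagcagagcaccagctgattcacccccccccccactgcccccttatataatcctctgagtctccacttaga
Ifit3b: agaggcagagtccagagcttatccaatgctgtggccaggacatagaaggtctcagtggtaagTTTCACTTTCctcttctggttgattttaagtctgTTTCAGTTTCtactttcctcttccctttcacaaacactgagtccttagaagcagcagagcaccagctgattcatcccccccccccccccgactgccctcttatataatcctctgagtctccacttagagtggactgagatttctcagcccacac
Each window holds 2 matches on the opposite strand, 104 and 85 bases before the start in Ifit1, 156 and 122 in Ifit3, and 188 and 154 in Ifit3b, counted to the first base of the match. The element was present in 2.98% of the 32851 windows of that length in the table. Counted by gene, 936 of 27025 (3.46%) had it in a window. Of the type I interferon genes 11 of 14 had a window and 6 of these held it. A match describes letters in a window and says nothing of binding in these cells.

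Of 25 genes of the interferon gamma response and antigen presentation, 2 were called higher in the anti-PDCD1 cells and 1 lower, against 1.75% and 1.19% of all genes. In cells with Xist and no Y-linked UMI 8 of 21 were higher and 0 lower, against 2.74% and 2.10% of all genes. The median log2 ratio there was 0.94. In cells with Y-linked UMIs and no Xist 3 of 18 were higher and 2 lower, against 5.39% and 2.70%, with a median of 0.36. With at least 20 selecting UMIs 4 of 22 were higher and 2 lower, against 2.51% and 1.48%, with a median of 0.30. H2-K1, a classical MHC class I heavy chain, stood at 1331 and 495 CPM in 114 of 124 and 62 of 78 cells, with a log2 ratio of 1.42 with and without the highest cells. The difference was present in both kinds of cell, 2208 and 579 CPM in the Lum cluster and 1243 and 485 CPM in the others. H2-D1 stood at 1105 and 607 CPM (0.86) and the light chain B2m at 935 and 528 CPM (0.82), both short of 2-fold. Cd74, the invariant chain of MHC class II, stood at 904 and 352 CPM in 75 and 29 cells (1.35). Its highest anti-PDCD1 cell, with 154 of 1032 UMIs, was the cell of 31462 UMIs that held most of the Jchain UMIs. The highest anti-TIGIT cell held 64 of 182 Cd74 UMIs. Gbp6, an interferon-induced GTPase, was lower, at 71.0 and 164 CPM (-1.16). The list had a median log2 ratio of 0.20 against 0.84 in the other kept barcodes, where H2-K1 had a ratio of 0.77. That ratio differed by gate. H2-K1 stood at 1247 and 190 CPM in the oligodendrocyte gate and 1671 and 502 CPM in the precursor gate. It stood at 3345 and 1903 CPM in the macrophage and microglia gate, 2313 and 2026 CPM in the B cell gate and 3560 and 3467 CPM in the T cell gate. H2-K1, H2-D1 and related heavy chains are near copies, so reads may be shared among them.

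Against the other kept barcodes, the genes outside the selection with the largest ratios in both libraries were Lum (log2 ratio 5.57 in the anti-PDCD1 and 5.97 in the anti-TIGIT library), Mfap5 (5.33 and 5.42), Mfap4 (5.22 and 6.19), Igfbp6 (5.17 and 5.68), Fstl1 (5.14 and 5.68), Col3a1 (5.43 and 5.03) and Igfbp5 (5.01 and 5.61). Igfbp6 and Igfbp5 bind insulin-like growth factors, and Mfap5 is a component of microfibrils. Igfbp5 stood at 3701 and 3297 CPM in 114 and 71 cells. Lum and Mfap4 were higher in the Lum cluster than in the other cells, with Lum in 31 and 30 cells, and Igfbp6, Fstl1, Ecrg4 and Col6a2 were lower there. A level 2-fold or more above the other barcodes was found for 11.2% of 16319 genes in the anti-PDCD1 library and for 13.2% of 14434 in the anti-TIGIT library. Since the cells were selected on correlated matrix genes, these ratios describe them and are no test.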

How the data were processed

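Per the file headers, the authors made the deposited UMI count matrices (raw whole-number counts, 32285 genes) with Cell Ranger 8.0.0 (anti-PDCD1) and 8.0.1 (anti-TIGIT), and per the submitters' processing notes aligned to mm10. Seurat 5.0.3 and R 4.1.1 are listed there too; no output of theirs was used. The 21912 barcodes were filtered to 500 genes and 10% mitochondrial UMIs. Counts were summed per library, given as CPM, and compared as the log2 ratio of (CPM + 5) with exact conditional binomial intervals. Calls were 2-fold among genes with at least 50 UMIs over both libraries. Shares have Clopper-Pearson intervals. All are at 95%.

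Clusters came from 2000 variable genes without receptor, immunoglobulin, mitochondrial, ribosomal, sex-linked and handling genes, 20 components, 15 neighbours and Leiden resolution 0.5. Doublets were left in, and removed as an alternative with Scrublet. Comparator gates used marker UMIs, and gates under 50 cells (endothelial, mural) were not used as comparators. Genes between libraries were named as the 15 largest log2 ratios in each direction seen in 5% or more of one library's cells, without mitochondrial, ribosomal, haemoglobin, receptor, immunoglobulin, sex-linked and unnamed predicted genes and those below 25% of their highest comparator level. Genes could also be named from the 20 largest against the rest, the 10 leading genes per cluster, the 10 highest and 10 lowest correlations with Ptgds and the gene lists. The cells, gene lists and these rules were chosen with earlier results of these data known. Of 528 listed genes Cxcl11 was missing. On simulated Poisson counts, with known ratios in 200 genes, intervals and calls were checked; spread between mice was not simulated. Alternatives are in the closing section. Software was Python 3.11.15, scanpy 1.11.5, leidenalg 0.10.2 and scipy 1.17.1.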

Additional observations from a re-analysis of the deposited data

How the results depend on the processing

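Most results kept their direction and size under the alternatives: 360 values of named genes were unchanged in call, 25 fell below 2-fold and 5 reversed, and list medians stayed close in 269 cases and moved in 53. The reversals were Ifit3 in cells with Xist only (1.27), Fzd7 in cells with Y-linked UMIs only (0.082), and Krtdap (-0.13), Pi16 (-0.10) and Sbsn (-0.35) without the Krtdap cluster. The Ptgds ratio stayed above 2-fold in all 14 settings, but 8 anti-PDCD1 cells held 93.4% of the Ptgds UMIs of that library. The share difference became 0.304 points with at least 5 selecting UMIs and 0.255 points in cells with Y-linked UMIs only. Genes called higher numbered 30 after thinning to 1000 UMIs, 50 with a pseudocount of 20 CPM, 195 with at least 20 UMIs, 31 with at least 200 UMIs and 60 without the Krtdap cluster, and genes called lower numbered 11, 35, 203 and 17 in the first 4 and 39 with at least 20 selecting UMIs. Thinning left 658 genes to compare, of which 4.56% were called higher and 1.67% lower, at least 20 selecting UMIs left 2631, and the UMI limits gave 8539 and 1401 in place of 5193. Thinning to 500 UMIs left Ptgds in 14.1% of anti-TIGIT cells, and to 2000 UMIs in 32.5% of anti-PDCD1 cells. Resolution 1.0 gave 7 clusters. Against the highest comparator gate, 559 genes were at least 2-fold higher in both libraries in place of 1118. The causes were not tested. No paired analysis was possible because each group has 1 library. Depth limits all values on single cells, and the Lum cluster, at a median of 2802 UMIs, most.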

Other observations

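A few genes were high in 1 cell each, all chosen after their values were seen. Myoc, which encodes myocilin of the eye's drainage tissue and optic nerve sheath, had 143 UMIs in 1 anti-PDCD1 cell of the Krtdap cluster and 11 UMIs in 3 anti-TIGIT cells. Oxt, the oxytocin precursor, had 69 of its 71 anti-PDCD1 UMIs in 1 cell of cluster 2. One anti-TIGIT cell of the Krtdap cluster with 20346 UMIs held 34 of 34 Top2a UMIs, 86 of 87 Ube2c UMIs and 163 of 229 UMIs of the cell cycle list, together with 8 UMIs of Col1a2 and 14 of Ccn3, and no Top2a UMI was found in any anti-PDCD1 cell.

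Vtn, a plasma and pericyte-type gene, had 252 and 76 UMIs in 28 and 19 cells, while the mural genes Kcnj8, Higd1b and Myh11 had none. Alpl, alkaline phosphatase, had UMIs in 76 and 39 cells at 281 and 451 CPM, while the bone and fat genes Bglap, Ibsp and Adipoq had none. Cdh5, a cadherin of endothelium, had UMIs in 39 and 29 cells at 46.4 and 94.7 CPM, with Pecam1, Cldn5 and Flt1 at 0.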
